A study of Mus musculus with 6 samples.

Results

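The genes described here are 40 genes of the cell cycle and of DNA replication, measured in whole mouse liver after chow or a ketogenic diet. They were chosen by name, as factors that license and copy DNA, cyclins and their kinase and proteins of mitosis. For 39 of the 40 the array had a probe set annotated to that gene alone, out of 18193 genes with such a probe set. Cyclin B1 (Ccnb1) had none, so its level was not analysed here. Where a gene had several probe sets, the probe set with the highest mean signal over the 6 arrays stood for it.

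The mice were C57BL/6 animals, 8 weeks old when the diets began. Over the next 6 weeks they ate either chow (Labdiet 5008, Pharmserv) or a ketogenic diet (F3666, Bio-Serv), both without restriction, and livers were taken in the morning. The labels name no transgene or drug, and diet was the only stated difference. Each diet had 3 Affymetrix arrays, and the RNA came from 2 to 3 mice for a diet. The labels do not say whether an array held 1 mouse or a pool, so the p-values measure the spread between arrays, which may be partly technical. The material was bulk liver RNA, in which more cells of a type and more RNA per cell cannot be told apart.

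Cells copy their DNA in S phase and divide it in mitosis. Before S phase the MCM helicase is loaded at replication origins by Cdc6 and Cdt1, and cyclin and kinase pairs then start replication and, later, mitosis. Many of the genes are held silent in resting cells and are switched on together, those of replication largely by E2F factors at the entry into S phase and those of mitosis later, through promoter elements named the cell cycle genes homology region (CHR) and the CCAAT box. Most hepatocytes of an adult liver rest outside the cycle, and whole liver also holds macrophages, stellate cells, endothelial cells and blood cells.

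Values are deposited array signals on a linear scale. Signals of the bacterial control probe sets, which have no counterpart in mouse RNA, placed the background at 10.7 (their 95th percentile), and of the 39 genes 19 were above it on both diets by their mean log2 signal, 16 were under it on chow only and 4 were under it on both. A gene under background on chow has only a lower bound for its fold difference, and such genes are given as at least so many fold, computed against the background level. The 2% trimmed mean signal lay between 39.6 and 53.1 on the chow arrays and between 45.6 and 60.7 on the ketogenic arrays (two-sided exact permutation test, p = 0.3). The hybridization controls, added in fixed amounts, averaged 1471 ± 18.4 on chow and 1212 ± 55.8 on the ketogenic diet (SD, n = 3 each), and the actin 3' to 5' ratio, a sign of RNA integrity, was 2.08 ± 0.107 against 1.59 ± 0.0820. Neither measure overlapped between the diets (exact permutation p = 0.1 for both, the smallest p that 3 against 3 can give), and their part in the results below was not tested. The Gapdh 3' to 5' ratio did overlap, at 0.839 ± 0.115 on chow and 0.793 ± 0.0187 on the ketogenic diet (exact permutation p = 0.9).

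Of the 26 genes past a filter on low signal, 12 were higher on the ketogenic diet, 0 were lower and 14 did not pass the test at an adjusted p of 0.05 (limma with Benjamini-Hochberg adjustment over 11860 genes), and 24 of the 26 differences were positive. Over all genes tested, 6.57% were higher and 0.86% were lower, 7.43% in either direction, and 8293 of the 11860 differences were positive. The 12 were Cdt1, Mcm5 and Mcm6 of replication, the cyclins Ccnd1 and Ccna2, the kinase Cdk1, and Cdc20, Ube2c, Prc1, Stmn1, Mki67 and Top2a of mitosis. The median log2 difference of the 26 was 1.40, beside 0.24 for all genes tested, and it was 1.35 beside 0.23 with every signal below the background set to the background level.

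The filter kept genes by their mean over all arrays, so a gene silent on chow passed only if it was high enough on the ketogenic diet, and the counts of the 26 describe those genes only. Over all 39 genes, fitted without the filter, 6 were higher (Mcm6, Ccnd1, Ccnb2, Birc5, Stmn1 and Mki67) and 0 were lower. Over all 18193 genes, 1.24% were higher and 0.225% lower. Of the 39 differences 35 were positive, beside 11436 of the 18193. In 25 of the 39 all 3 ketogenic arrays were above all 3 chow arrays, and in 1, Tk1, all were below, where 18.1% and 5.33% of all genes did so. Of the 12 genes, 4 (Mcm6, Ccnd1, Stmn1 and Mki67) were past the threshold under every alternative setting that gave them a value.

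**Figure D1:**
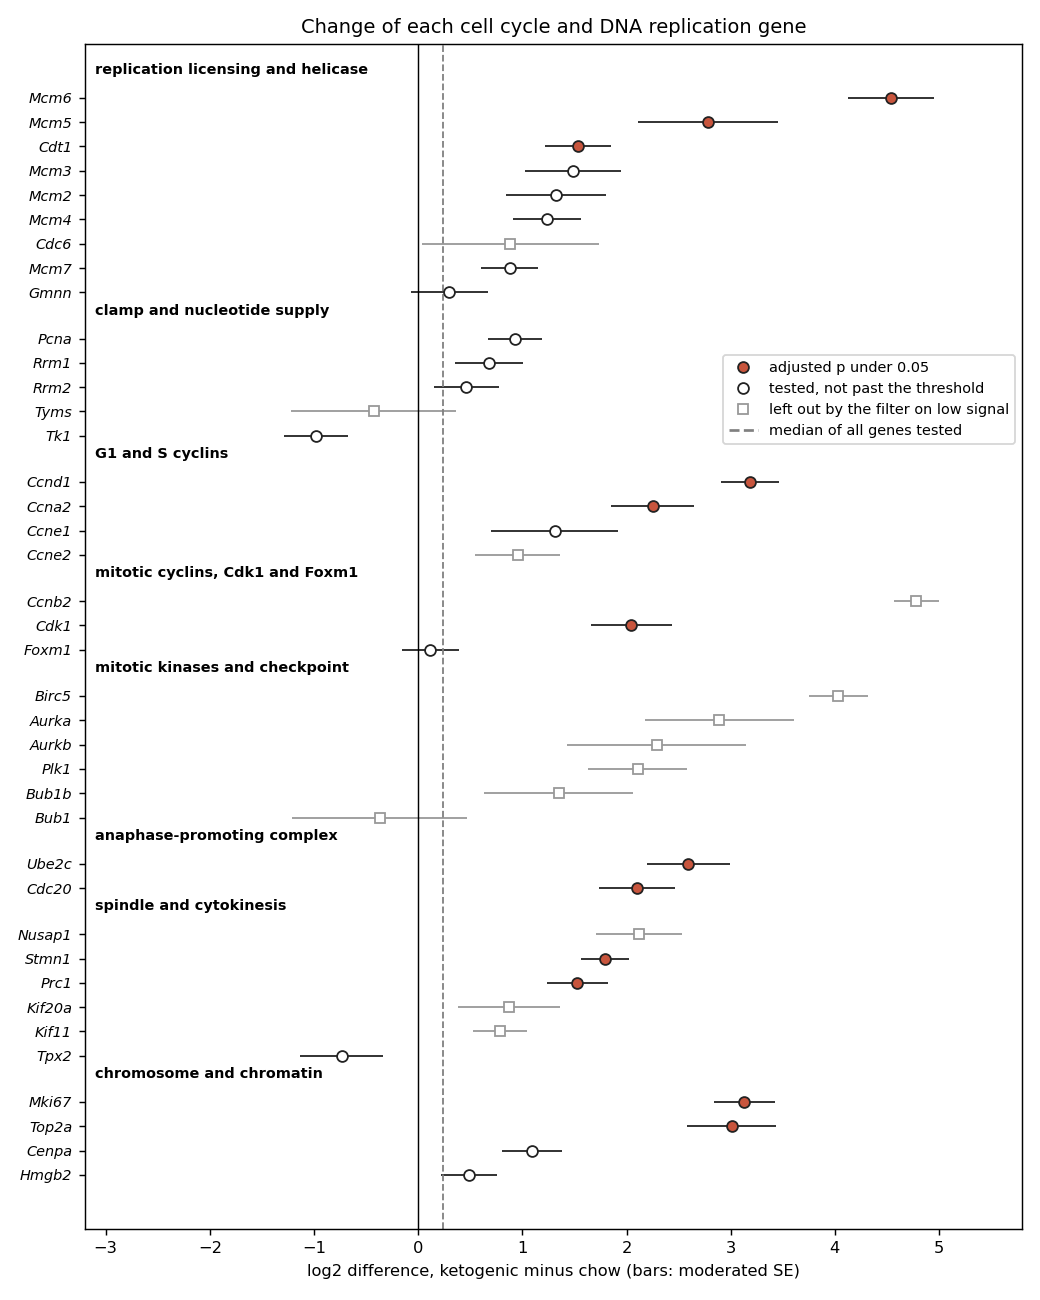
Log2 difference of each gene, ketogenic minus chow, on the horizontal axis, with the moderated standard error as bars and genes grouped by role; filled circles passed an adjusted p of 0.05, open circles were tested and did not, and grey squares were left out by the filter on low signal. The 12 filled circles all lie to the right of the dashed line, the median of all genes tested (0.24), while Tk1, Tpx2, Tyms and Bub1 lie to the left of 0; differences of genes under background depend on the floor of 1.1.

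The promoters of 5 of the genes are shown because the genes were higher together and belong to the classes that E2F and CHR elements are known to serve. RefSeq promoter sequences (GRCm38.p6) were at hand for 30 of the 40 genes, including Ccnb1, which has no array value here. The last 120 bases before the annotated start are printed from 5′ to 3′ on the strand of the gene, and capitals mark matches, on either strand, to the CCAAT box, to the CHR or to an E2F core, which can overlap each other. The CHR was searched as TTTGAA and also as TTCGAA. The E2F core was searched as TTGGCG and as the variant TTCGCG, besides the variant TTCCCG and the variant TTGCCG. Cdc20, Ube2c, Cdk1 and Top2a are examples from mitosis and Mcm6 from replication. They lie at chr4:118437344-118437463 (minus strand, Cdc20), chr2:164769809-164769928 (plus strand, Ube2c), chr10:69352913-69353032 (minus strand, Cdk1), chr11:99024190-99024309 (minus strand, Top2a) and chr1:128359706-128359825 (minus strand, Mcm6).
Cdc20: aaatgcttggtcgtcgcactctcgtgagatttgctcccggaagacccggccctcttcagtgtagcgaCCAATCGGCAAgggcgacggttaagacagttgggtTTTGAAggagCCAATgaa
Ube2c: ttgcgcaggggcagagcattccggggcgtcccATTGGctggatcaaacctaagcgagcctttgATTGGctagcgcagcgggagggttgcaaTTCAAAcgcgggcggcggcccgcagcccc
Cdk1: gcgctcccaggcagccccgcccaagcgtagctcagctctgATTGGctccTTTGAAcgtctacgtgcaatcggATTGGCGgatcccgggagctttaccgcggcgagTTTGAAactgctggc
Top2a: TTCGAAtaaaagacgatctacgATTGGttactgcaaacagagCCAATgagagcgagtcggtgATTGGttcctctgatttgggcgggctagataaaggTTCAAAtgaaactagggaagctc
Mcm6: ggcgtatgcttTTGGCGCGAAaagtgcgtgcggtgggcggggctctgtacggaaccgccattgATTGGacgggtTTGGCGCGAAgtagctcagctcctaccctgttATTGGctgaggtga
All 4 mitotic windows hold both a CHR and a CCAAT match, but they were picked by name and do not show the share among mitotic genes. In Cdc20 the CHR match begins 18 bases before the start, and Ube2c has it on the opposite strand. The Mcm6 window holds E2F core matches in a pair of clusters, CCAAT matches and no CHR match. E2F core matches also lie in the Cdc20 and Cdk1 windows.

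Over the 250 bases before the start, 12 of the 30 promoters (40%) held a CHR match, beside 19.6% of the 27025 genes in the promoter table and 14.9% of the 9591 genes past the filter with a promoter there. A CCAAT match was found in 23 of 30 (76.7%), beside 37.5% and 40.2% of the same sets. An E2F core was found in 16 of 30 (53.3%), beside 23.2% and 37%. CHR and CCAAT occurred together in 12 of 30 (40%), beside 7.93% and 6.5%. Mitotic genes without a CHR match over these bases included Aurka, Birc5, Bub1, Ccnb1, Cenpa, Nusap1 and Plk1. The replication genes Mcm2 and Mcm7 had both a CHR and a CCAAT match. Ccnb1 is counted among those with CCAAT and among those with an E2F core. These are matches of letters and not sites shown to be bound.

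Among the licensing and helicase genes, 3 of the 8 past the filter rose and the other 5 had positive differences. Mcm6, a subunit of the MCM helicase, had signals of 3.9, 3.0 and 2.3 on the chow arrays and 58.2, 133 and 43.9 on the ketogenic arrays. All chow arrays were under background and all ketogenic arrays well over it, so Mcm6 was at least 6.55-fold higher (adjusted p = 0.000784, limma). A dimmer Mcm6 probe set read 4.1, 3.4 and 6.8 on chow and 22.9, 31.8 and 12.4 on the ketogenic diet, with a bound of 1.95-fold. The remaining Mcm6 probe set was under background on both diets. Another subunit, Mcm5, read 12.5, 6.4 and 2.3 on chow and 32.3, 89.8 and 20.6 on the ketogenic diet, at least 3.48-fold higher (adjusted p = 0.0396).

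The Mcm5 call was lost when any of chow arrays 2 and 3 and ketogenic arrays 2 and 3 was left out, under trimmed-mean or quantile scaling and without the filter, with adjusted p up to 0.172. Cdt1, which loads the helicase, read 36.8, 30.8 and 35.3 on chow and 93.8, 152 and 68.0 on the ketogenic diet. The groups did not overlap, and the log2 difference was 1.53 ± 0.31 (SE, adjusted p = 0.0210). The Cdt1 call was lost when chow array 2, chow array 3 or ketogenic array 2 was left out, without the filter and with the mean of all its probe sets, with adjusted p up to 0.105.

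The remaining helicase subunits had positive differences that did not pass the test. They were called higher under some alternatives, Mcm4 under 7 of 18, Mcm2 under 5 of 18, Mcm3 under 5 of 17 and Mcm7 under 4 of 18. Mcm4 read 29.8, 17.7 and 21.2 on chow and 59.0, 70.4 and 35.2 on the ketogenic diet, a log2 difference of 1.24 ± 0.33 with no overlap (adjusted p = 0.0558). Mcm7 also had no overlap, with a mean of 105 ± 9.43 on chow and 197 ± 59.1 on the ketogenic diet (SD, n = 3 each), a log2 difference of 0.88 ± 0.27 (adjusted p = 0.0884). Mcm3, whose groups overlapped, and Mcm2 had log2 differences of 1.48 ± 0.46 (adjusted p = 0.0909) and 1.32 ± 0.48 (adjusted p = 0.141). The other Mcm3 probe sets, under background on chow by their mean, gave 2.86, 3.11 and 1.84 with no overlap and 0.30 with overlap.

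Mcm2 read 23.1, 18 and 22.4 on chow and 24.5, 113 and 52.5 on the ketogenic diet, with the highest value on ketogenic array 2. Its other probe set read 18, 13.1 and 9.2 on chow and 42.5, 86.1 and 32.4 on the ketogenic diet, with no overlap. That probe set had a log2 difference of 1.92, and with it Mcm2 was called (adjusted p = 0.0214 without the x and s probe sets, within 0.0214 to 0.325 over its alternatives). Geminin (Gmnn), the inhibitor of Cdt1, read 72.9, 55.6 and 41.6 on chow and 74.9, 102 and 41.0 on the ketogenic diet. The groups overlapped, and its log2 difference was 0.30 ± 0.37 (adjusted p = 0.667). Cdc6, the partner of Cdt1 in loading the helicase, was under background on both diets.

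None of the 4 genes of the sliding clamp and nucleotide supply past the filter was called. Pcna, the clamp that holds DNA polymerase on its template, read 211, 206 and 175 on chow and 356, 484 and 305 on the ketogenic diet. These groups did not overlap, and the log2 difference of 0.93 ± 0.26 had an adjusted p of 0.0640. It was called higher under 6 of 18 alternatives, among them median, trimmed-mean and quantile scaling. Both subunits of ribonucleotide reductase, which makes deoxynucleotides, had positive differences, 0.68 ± 0.32 for Rrm1 (adjusted p = 0.253) and 0.46 ± 0.31 for Rrm2 (adjusted p = 0.415).

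Thymidine kinase 1 (Tk1), which salvages thymidine, ran the other way. It read 75.6, 57.4 and 73.9 on chow and 50.3, 33.3 and 24.9 on the ketogenic diet. No ketogenic array reached the lowest chow array, and the log2 difference was -0.98 ± 0.30 (adjusted p = 0.0890). It was called lower under 5 of 18 alternatives, among them scaling to a common median, trimmed mean or quantiles. Tyms, which makes thymidylate, was under background on both diets by its mean log2 signal, though it read 1.8, 11.4 and 13.3 on chow.

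Of the G1 and S phase cyclins, 2 of the 3 past the filter rose. Cyclin D1 (Ccnd1), the partner of Cdk4 and Cdk6 in G1, read 69.3, 47.5 and 61.9 on chow and 444, 718 and 480.1 on the ketogenic diet. Every ketogenic array was far above every chow array, and the log2 difference was 3.18 ± 0.28 (adjusted p = 0.000784). The other probe sets of Ccnd1 gave 3.42 and 2.76.

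Cyclin A2 (Ccna2), which acts in S phase and at the entry into mitosis, read 12.9, 4.5 and 5.4 on chow and 26.1, 34.5 and 37.4 on the ketogenic diet. It was at least 2.84-fold higher (adjusted p = 0.0117), and the call was lost without ketogenic array 3 and without the filter, with adjusted p up to 0.0772. Cyclin E1 (Ccne1), which drives the entry into S phase, gave no settled direction: its representative probe set had a log2 difference of 1.31 ± 0.61 (adjusted p = 0.242), while its other probe set read 19.5, 14.6 and 18.5 on chow and 8.7, 6.4 and 8.6 on the ketogenic diet, a log2 difference of -1.15. Ccne2 was left out by the filter, with means of 5.97 ± 2.83 on chow and 10.9 ± 2.44 on the ketogenic diet.

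**Figure D2:**
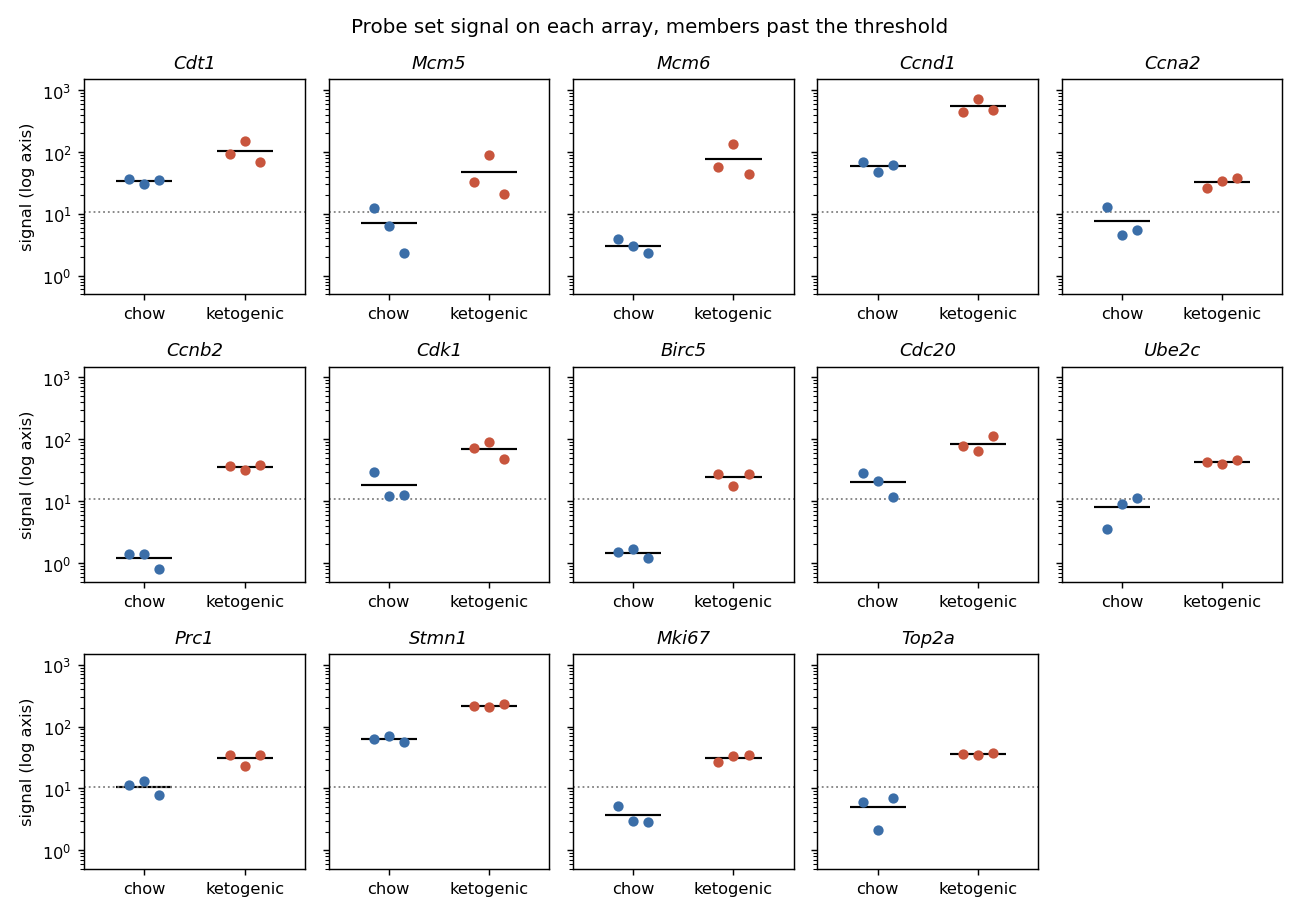
Deposited signal on a log axis for the 12 genes past the threshold and for Ccnb2 and Birc5, past it in the fit without the filter; each point is an array, the lines are means of 3 arrays and the dotted line is the background. Mcm6, Ccnb2, Birc5, Mki67 and Top2a sit under the background of 10.7 on every chow array and above it on every ketogenic array.

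The mitotic cyclin and its kinase were higher together. Cyclin B2 (Ccnb2), a partner of Cdk1, read 1.4, 1.4 and 0.8 on chow and 37.0, 31.7 and 38.2 on the ketogenic diet. It was left out by the filter because of its low chow signals, and in the unfiltered fit it was at least 3.33-fold higher (adjusted p = 0.00492). That call was lost without chow array 2, ketogenic array 1 or ketogenic array 3, with adjusted p up to 0.0668.

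Cdk1, the kinase that starts mitosis, read 29.2, 11.9 and 12.7 on chow and 71.9, 89.3 and 48.4 on the ketogenic diet. The groups did not overlap, and the log2 difference was 2.05 ± 0.39 (adjusted p = 0.0156), a call lost without chow array 3 and without the filter with adjusted p up to 0.0933. Foxm1, a transcription factor of mitotic genes, read 19.0, 17.7 and 25.4 on chow and 24.8, 17.1 and 25.7 on the ketogenic diet, with overlapping groups and a log2 difference of 0.12 ± 0.27 (adjusted p = 0.828).

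All 6 mitotic kinase and checkpoint genes were left out by the filter. Survivin (Birc5), a subunit of the chromosomal passenger complex, read 1.5, 1.7 and 1.2 on chow and 27.9, 17.7 and 27.2 on the ketogenic diet. It was at least 2.23-fold higher in the fit without the filter (adjusted p = 0.0121), and leaving out any of chow arrays 2 and 3 and ketogenic arrays 1 and 3 ended the call, with adjusted p up to 0.0932. Aurka, a spindle pole kinase, had means of 4.83 ± 4.15 and 27.1 ± 5.60 with no overlap (adjusted p = 0.127 without the filter).

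Plk1, a kinase needed throughout mitosis, had means of 5.20 ± 1.97 on chow and 22.9 ± 11.7 on the ketogenic diet, with no overlap (adjusted p = 0.103 without the filter). Aurkb, the kinase of the passenger complex, had means of 4.77 ± 5.61 and 15 ± 4.24 (adjusted p = 0.266). The spindle checkpoint genes Bub1 and Bub1b were under background on both diets by their mean log2 signal.

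Both genes of the anaphase-promoting complex rose. Cdc20, its activator, read 28.5, 21.4 and 11.6 on chow and 77.4, 64.6 and 111 on the ketogenic diet. The groups did not overlap, and the log2 difference was 2.10 ± 0.37 (adjusted p = 0.0117). Ube2c, the ubiquitin-conjugating enzyme of the complex, read 3.6, 9.1 and 11.1 on chow and 42.7, 40 and 46.7 on the ketogenic diet, at least 3.98-fold higher (adjusted p = 0.00705). Both calls were lost without the filter, with adjusted p of 0.0753 for Cdc20 and 0.0608 for Ube2c.

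Of the spindle and cytokinesis genes, 2 of the 3 past the filter rose. Stathmin (Stmn1), which destabilises microtubules, read 62.9, 70.7 and 55.4 on chow and 213, 208 and 231 on the ketogenic diet. The arrays of each diet lay close together, and the log2 difference was 1.79 ± 0.23 (adjusted p = 0.00341). Prc1, which bundles the central spindle, read 11.4, 13.0 and 7.8 on chow and 34.8, 23.0 and 34.6 on the ketogenic diet, at least 2.60-fold higher (adjusted p = 0.0154).

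The Prc1 call was lost without ketogenic array 1 or 3 and without the filter, with adjusted p up to 0.0776. Tpx2, a spindle assembly factor, had a log2 difference of -0.74 ± 0.40 (adjusted p = 0.311) with overlapping groups, and its other probe sets gave 1.68, 0.82 and -1.05, so its direction was not settled. Nusap1, a spindle-associated protein left out by the filter, had means of 3.73 ± 1.72 and 15 ± 1.84 with no overlap (adjusted p = 0.0758 without the filter). The kinesins Kif11 and Kif20a were close to background, with ketogenic means of 11.6 ± 1.39 and 14.3 ± 5.75.

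Of the chromosome genes, 2 of 4 rose. Mki67, which encodes the proliferation marker Ki-67, read 5.2, 3.0 and 2.9 on chow and 26.6, 33.0 and 34.7 on the ketogenic diet. It was under background on every chow array and at least 2.93-fold higher on the ketogenic diet (adjusted p = 0.000872). Top2a, the topoisomerase that untangles chromosomes, read 6.1, 2.1 and 7.0 on chow and 35.5, 35.2 and 37.5 on the ketogenic diet.

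Top2a was at least 3.38-fold higher (adjusted p = 0.00532), with an adjusted p of 0.0533 without the filter. Its other probe sets, under or close to background, gave log2 differences of 0.05 and 0.12. The centromeric histone Cenpa read 28.6, 15.2 and 24.9 on chow and 49.2, 48.4 and 44.2 on the ketogenic diet, a log2 difference of 1.09 ± 0.28 (adjusted p = 0.0524). It was called higher under 7 of 18 alternatives, while its other probe sets gave -1.37 and -0.43. Hmgb2, a chromatin protein, had overlapping groups and a log2 difference of 0.49 ± 0.27 (adjusted p = 0.312).

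The 3 ketogenic arrays did not carry the replication and mitosis genes in the same proportions. The genes compared here were above background by their mean log2 signal on the ketogenic diet, and some, such as Mki67 and Top2a, were under it on chow. Of 12 such replication and nucleotide genes, 11 had their highest ketogenic signal on array 2, the exception being Tk1. This count was 11 both as deposited and after scaling the arrays to a common trimmed mean. After that scaling 32.8% of all genes were highest on array 2, while as deposited 62.4% were. Of 19 such mitotic genes, 13 were highest on array 3 after scaling (68.4%), beside 34.1% of all genes, and 9 of 19 as deposited, beside 8.51%.

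After scaling, the median replication gene lay 0.34 log2 units above its own ketogenic mean on array 2 and 0.34 below it on array 3, while the median mitotic gene lay 0.23 below its mean on array 2 and 0.33 above it on array 3. In the lists of other genes described next, 17 of 41 replication genes (41.5%) were highest on array 2 after scaling, beside 32.8% of all genes. Of 32 mitosis genes, 18 (56.2%) were highest on array 3 after scaling, beside 34.1%. As deposited, 27 of the 41 (65.9%) were highest on array 2, beside 62.4% of all genes. Of the 32, 8 (25%) were then highest on array 3, beside 8.51%, and 17 (53.1%) on array 2. The pattern over the ketogenic arrays was noticed in the values, genes on an array are not independent, and it was not tested.

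**Figure D3:**
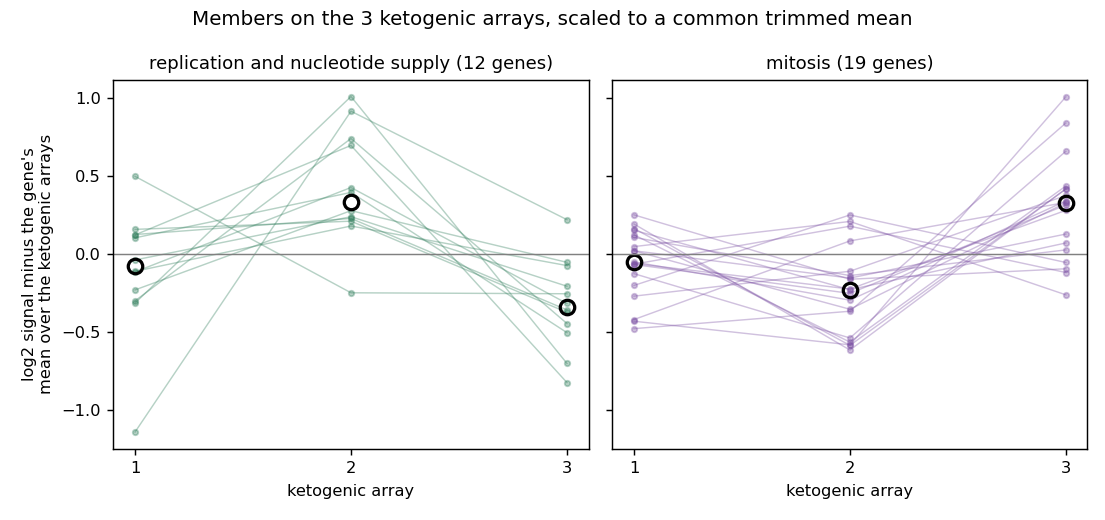
Log2 signal of each gene minus its own mean over the 3 ketogenic arrays, after scaling to a common trimmed mean, for 12 replication and nucleotide genes (left) and 19 mitotic genes (right); a line joins the values of a gene, the rings are medians, and the arrays are replicates with no order. The replication median is highest on array 2 (0.34) and the mitotic median on array 3 (0.33).

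Other genes of the same processes were described from lists of known members. Of 41 other replication genes past the filter, 4 rose and 0 fell, with a median log2 difference of 0.41, beside 6.57% higher and a median of 0.24 over all genes tested. Those that rose were Dbf4, the activator of the replication kinase (1.61 ± 0.36), Pold3, a polymerase delta subunit (1.17 ± 0.25), the ligase Lig1 (1.17 ± 0.29) and the maintenance methyltransferase Dnmt1 (1.07 ± 0.22). Omitting each of the 6 arrays in turn ended the Lig1 call every time, as did dropping the filter, with adjusted p up to 0.144. Dbf4 was lost under 5 of 17 alternatives, and Pold3 and Dnmt1 each under 6 of 18. For Dbf4 these held the omission of each ketogenic array, for Pold3 of chow array 3 and each ketogenic array, and for Dnmt1 of chow arrays 2 and 3 and ketogenic arrays 1 and 2. Of 32 other mitosis genes, 4 rose and 0 fell, with a median of 0.66: Cdca3 (1.56 ± 0.24), Cdca8 (at least 1.85-fold), Ckap2 (1.21 ± 0.28) and Kif22 (1.13 ± 0.28). Kif22 was called under 7 of 16 alternatives and lost under median, trimmed-mean and quantile scaling, without the filter and at each omission of an array except chow array 1 (adjusted p up to 0.139). Ckap2 was lost under 8 of 18, with the same 3 scalings among them, and Cdca8 under 6 of 16. Both were lost without chow array 2, chow array 3, ketogenic array 1 or ketogenic array 3. Cdca3 was lost with the mean of all its probe sets (adjusted p = 0.525, the highest of its 18 alternatives). These counts leave out genes under the filter: 46 replication and 56 mitosis genes had a probe set. In the limma fit without the filter, Smc2 (at least 2.95-fold, adjusted p = 0.00767) and Nuf2 (at least 1.55-fold, 0.0133) were higher. So were Anln (at least 1.47-fold, 0.0354), Uhrf1 (at least 1.43-fold, 0.0467) and Cenpe (0.0144), which was under background on both diets by its mean.

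Of 17 E2F, Rb and MuvB factors, the regulators of these genes, 1 rose and 0 fell, with a median of 0.08. The gene that rose was the E2F repressor E2f8, at 20.2, 10.5 and 13.3 on chow and 35.4, 41.7 and 36.3 on the ketogenic diet (1.42 ± 0.29, adjusted p = 0.02). Its call was lost without the filter and when chow array 2, chow array 3, ketogenic array 2 or ketogenic array 3 was left out, with adjusted p up to 0.0870. E2f1 had a log2 difference of 0.42 ± 0.30 with overlapping groups (adjusted p = 0.433). Rb1 and Myc were near 0, at -0.04 ± 0.28 and 0.06 ± 0.37, and both signs turned under other settings.

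Of 17 other cyclins, kinases and inhibitors, 1 rose and 0 fell, with a median of 0.71. That gene was Cdkn2c, an inhibitor of Cdk4 and Cdk6, at 48.4, 42.7 and 46.2 on chow and 115, 92.0 and 85.9 on the ketogenic diet (1.08 ± 0.23, adjusted p = 0.0252). Its call was lost under quantile scaling, without the filter and when chow array 2, chow array 3, ketogenic array 1 or ketogenic array 2 was left out, with adjusted p up to 0.122. Cdkn1a, the inhibitor p21, read 14.0, 180 and 24.1 on chow and 125, 136 and 120 on the ketogenic diet. Chow array 2 was above all ketogenic arrays and the groups overlapped, with a log2 difference of 1.69 ± 0.78 (adjusted p = 0.238). Without chow array 2 the difference was 2.79 (adjusted p = 0.00210, within a range up to 0.487 over its alternatives).

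Of 13 checkpoint and repair genes, 2 rose, Topbp1 (1.35 ± 0.32) and Trp53bp1 (1.04 ± 0.26), and 0 fell, with a median of 0.21. Trp53bp1 was called under 7 of 17 alternatives and lost at each omission of an array, without the filter and under median, trimmed-mean and quantile scaling (adjusted p up to 0.144). Topbp1 was lost under 5 of 17, without the filter and without chow array 2, chow array 3, ketogenic array 1 or ketogenic array 2 (adjusted p up to 0.137). None of 3 histone genes was called, the variant H2az1 having 0.73 ± 0.24 (adjusted p = 0.112). In the 6 lists together 12 of 123 genes rose, 0 fell and 97 had positive differences, with a median of 0.43. Over all genes tested 6.57% were higher, 0.86% were lower and 8293 of 11860 differences were positive, with a median of 0.24. Without the filter, 6 of the 167 list genes with a probe set were called higher, beside 1.24% of all 18193 genes.

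Markers of several other liver cell types were higher on the ketogenic diet as well. Of 17 macrophage markers past the filter 14 rose and 0 fell. Summed signals, here and below, cover all markers of a list with a probe set, also those left out by the filter. For the 18 macrophage markers the sum was 1710 to 2072 on the chow arrays and 5993 to 8364 on the ketogenic arrays. Of 7 pan-leukocyte markers 6 rose (454 to 579 against 1294 to 1556). Of 7 monocyte and dendritic cell markers past the filter 5 rose (335 to 565 against 1297 to 2328 for the 10 summed). Of 11 stellate cell and fibroblast markers past the filter 9 rose (1161 to 1491 against 3286 to 4844 for the 12 summed).

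Lymphocyte markers did not pass the test: 0 of 9 B and plasma cell markers (185 to 221 against 166 to 265) and 0 of 1 T and NK cell marker past the filter were called, and 8 of 11 T and NK cell markers were under background on both diets. Of 5 neutrophil markers past the filter 2 rose, S100a8 and S100a9 (97.6 to 129 against 107 to 155 for the 8 summed). Of 9 endothelial markers past the filter 1 rose, Tek (730 to 1133 against 1178 to 1560 for the 10 summed). Of 3 cholangiocyte markers past the filter 0 rose (64.1 to 90.3 against 99.2 to 138 for the 6 summed). Krt7, left out by the filter, read 1.4, 1.3 and 2.5 on chow and 8.1, 12.5 and 17.2 on the ketogenic diet. It was at least 1.24-fold higher in the fit without the filter (limma, adjusted p = 0.0402).

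Of 3 erythroid markers past the filter 1 fell, Alas2 (344 to 505 against 212 to 285 for the 7 summed). Hepatocyte markers defined the tissue on all arrays, with sums of 51167 to 55430 on chow and 40043 to 47041 on the ketogenic diet. Of 10 of them 1 fell, Cps1, the first enzyme of the urea cycle (-1.82 ± 0.30, adjusted p = 0.00966), while Alb was at -0.01. The part of these cell types in the differences of the cell cycle genes was not tested.

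**Figure D4:**
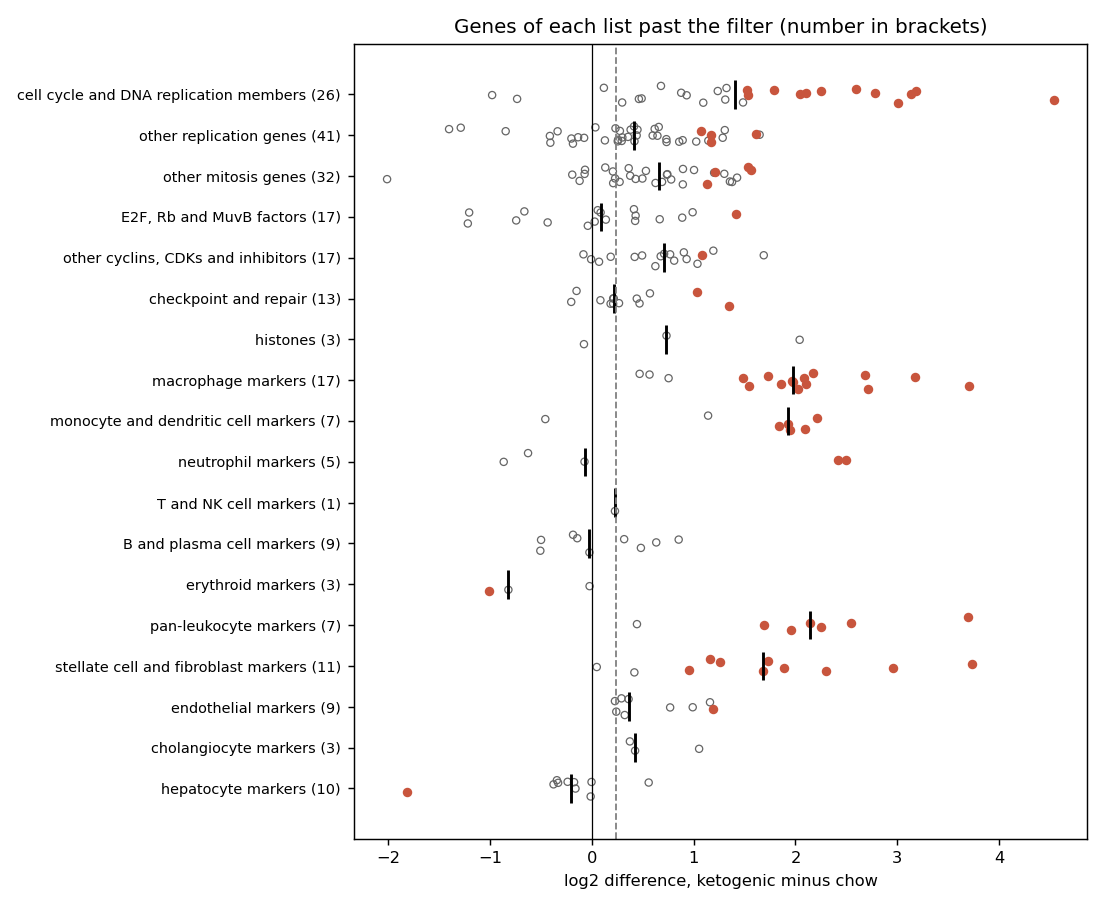
Log2 difference, ketogenic minus chow, of every gene past the filter in the cell cycle genes, the 6 other cell cycle lists and the 11 cell type marker lists, with filled points past an adjusted p of 0.05, a thick tick at each list's median and a dashed line at the median of all genes tested. The medians of the cell cycle genes (1.40) and of the macrophage, leukocyte and stellate cell lists lie to the right of the dashed line. The endothelial (0.36) and cholangiocyte (0.42) medians also lie to its right. The hepatocyte (-0.21), erythroid (-0.82), neutrophil (-0.07) and B and plasma cell (-0.02) medians lie to the left of 0.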

How the data were processed

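Liver RNA was hybridised to Affymetrix Mouse430_2 arrays, 3 per diet. The deposited values are linear signal intensities per probe set, for which the submitters' processing notes name GCOS and MAS5. Their scaling target was not stated. Signals of 45101 probe sets were used, of which 34958 had 1 gene symbol, 932 several and 9211 none listed in the platform annotation, and 64 were controls.

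Deposited intensities under 1.1, the 10th percentile, were raised to it and log2 values taken, with no further scaling. Each gene was represented by the single-symbol probe set with the highest mean signal, and the filter kept genes whose mean log2 signal was at least the median (3.35). The diets were compared with limma 3.58.1 in R 4.3.3 (lmFit, eBayes) and p-values were adjusted by Benjamini-Hochberg over all 11860 genes. The background came from 27 bacterial control probe sets. No depth exists for arrays, and their number limits the precision.

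The genes, lists and rules were chosen with earlier results of these data known. Named genes were all genes of the set and, per list, those past the threshold with the largest differences (the brightest where none passed), plus E2f1, Rb1, Myc and Cdkn1a. List genes left out by the filter were named where the fit without it called them. Other scalings, floors, filters, probe set rules, a trended robust prior and leaving out each array were the alternatives. Promoter matches are described, not tested.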

Additional observations from a re-analysis of the deposited data

How the results depend on the processing

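The number of genes of the set called higher, 12, was 9 to 14 when each array was left out in turn, 21 with log2(signal + 16) and 6 without the filter; under the other settings it lay between 10 and 18. The number called lower, 0, stayed 0 without each array and was 1 under median, trimmed-mean and quantile scaling, log2(signal + 16) and the trended robust prior (Tk1 each time) and 1 without the x and s probe sets (Ccne1). Over all genes, 779 higher became 425 to 826 without an array, 2593 under scaling to the hybridization controls, 1351 with log2(signal + 16), 226 without the filter and 1214 with the trended robust prior. The 102 lower became 56 to 139 without an array, 278, 362 and 328 under median, trimmed-mean and quantile scaling, 270 with log2(signal + 16), 41 without the filter and 232 with the trended robust prior. In the other cell cycle lists, 12 higher became 2 to 16 without an array, 7 under quantile scaling, 42 under the hybridization controls, 24 with log2(signal + 16), 6 without the filter, 7 with the mean of all probe sets and 20 with the trended robust prior; 0 lower became 0 to 2 without an array, 1 under trimmed-mean and 1 under quantile scaling, 4 with log2(signal + 16) and 4 with the trended robust prior.

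Higher calls were 88.4% of all calls as deposited and 77.1%, 65.4%, 64% and 96.4% under median, trimmed-mean, quantile and hybridization-control scaling, which shifted the median over all genes tested by -0.11, -0.21, -0.24 and 0.28. Signs turned, in log2 units, for Gmnn (-0.014, quantile), Foxm1 (-0.10, trimmed mean; -0.10, quantile), Ccne1 (-1.15, without x and s probe sets), Tpx2 and Cenpa (0.18 and -0.24, mean of all probe sets), and Bub1 (0.33, mean of all probe sets). Rb1 was 0.24 under the hybridization controls, and Myc was -0.055, -0.16 and -0.25 under median, trimmed-mean and quantile scaling. Leaving out each array in turn gave ranges that crossed 0 for Cdc6 (-0.12 to 1.38), Tyms (-1.35 to 0.090), Bub1 (-1.24 to 0.27), Rb1 (-0.19 to 0.20) and Myc (-0.27 to 0.46). The causes were not tested.

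No paired analysis was possible because the replicate numbers follow accession order and pair no samples. With 3 arrays per diet, array-level measures cannot reach an exact p under 0.1, and genes under background have only a bound.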
